A study of Mus musculus with 4 samples.

Results

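Open chromatin was described around 4 genes of the ephrin and Eph family in endothelium that had been isolated from mouse lungs by fluorescence-activated sorting. The genes were Efnb2, Ephb4, Efnb1 and Efna1, and their regions were every ATAC-seq peak that overlapped a gene's span on mm10 or the 50 kb on either side. ATAC-seq uses a transposase that inserts sequencing adapters into accessible DNA. The mice were knockout for Dnmt3a (KO, 2 libraries) or wild type (WT, 2 libraries), and each library was deposited as a list of peak positions and widths with no score and no read count. The labels give tissue, cell type and genotype. The allele, any Cre driver, the age and sex of the mice and any pooling are not given in the sources used here. Nothing says that the libraries of a genotype came from separate mice, so p-values measure the spread between these libraries only. Dnmt3a encodes an enzyme that adds methyl groups to cytosine in CpG dinucleotides, and the series title names the enhancers of endothelium as its subject. When peaks of the 4 lists that overlapped by at least 1 bp were joined, 81 of 113056 merged regions fell to these genes: 22 at Efnb2, 21 at Ephb4, 11 at Efnb1 and 27 at Efna1. KO replicates 1 and 2 had 62 and 74 peaks in them, and WT replicates 1 and 2 had 74 and 68.

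Ephrins are membrane-anchored ligands and Eph receptors are the receptor tyrosine kinases that bind them on neighbouring cells, so that both partners can signal at the site of contact. Ephrins of the B class have a transmembrane anchor and a cytoplasmic tail, whereas those of the A class are held by a lipid anchor. In blood vessels ephrin B2 marks arterial endothelium and its receptor EphB4 marks venous endothelium, and mouse embryos that lack either fail to remodel their vessels. Ephrin B1, encoded on the X chromosome, binds receptors of the B class. Ephrin A1 was identified as a gene induced by inflammatory cytokines in endothelial cells and binds EphA2.

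The libraries of 1 genotype differed among themselves. KO replicate 1 had the shortest list, with 85091 peaks against 100879 in KO replicate 2 and 101442 and 97627 in the WT lists, and the largest median peak width, 467 bp against 407 to 443 bp. Peaks lay within 1000 bp of a gene end at all 10 endothelial marker genes examined in every library, among them Pecam1, Cdh5 and Kdr. Of the leukocyte markers, Ptprc, Cd3e and Itgam lacked such a peak in every library, and Lyz2 lacked it in both KO libraries and in WT replicate 2 but had it in WT replicate 1. Epithelial markers had 4 and 5 of 5 in KO against 5 and 5 in WT, and fibroblast and mural markers 5 and 5 of 5 in KO against 5 and 4 in WT. The part of other cell types in the results was not tested. Genes of the Y chromosome had a peak at 4 and 0 of 5 genes in KO and at 3 and 4 in WT, and KO replicate 2 was the only library with a peak within 2500 bp of an end of Xist, the RNA gene of X inactivation. By these peaks, KO replicate 2 differed in apparent sex from each other library, and no sex is given in the labels. This bears on Efnb1, whose values are therefore also given without KO replicate 2. In bulk cells, a peak missing from a list cannot separate fewer cells with open chromatin, less access per cell and lower sequencing depth.

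The DNA just before each annotated start is shown because peaks covered it in every library and because CpG sites, the substrate of Dnmt3a, are written in it. The sequences are the 250 bases before the start site, from RefSeq on GRCm38.p6 (mm10), 5′ to 3′ on the strand of the gene. All 4 genes matched an entry, and Efna1 has a pair of starts, giving 5 sequences. Capitals mark matches, on either strand, to the GC box letters GGGCGG, bound by factors of the Sp family, and to the CCAAT box letters CCAAT, bound by NF-Y.
Efnb2, chr8:8661243-8661492, minus strand: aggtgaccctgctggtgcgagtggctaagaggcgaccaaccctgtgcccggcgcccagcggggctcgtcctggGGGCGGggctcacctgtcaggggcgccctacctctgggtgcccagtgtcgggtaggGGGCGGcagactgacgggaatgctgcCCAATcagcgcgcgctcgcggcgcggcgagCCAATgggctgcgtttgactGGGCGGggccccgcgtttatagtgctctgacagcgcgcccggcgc
Ephb4, chr5:137349859-137350108, plus strand: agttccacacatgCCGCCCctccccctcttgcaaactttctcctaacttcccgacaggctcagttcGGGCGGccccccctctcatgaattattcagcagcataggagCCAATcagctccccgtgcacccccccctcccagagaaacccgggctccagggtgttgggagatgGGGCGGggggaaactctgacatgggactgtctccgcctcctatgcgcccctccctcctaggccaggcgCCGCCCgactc
Efnb1, chrX:99135811-99136060, plus strand: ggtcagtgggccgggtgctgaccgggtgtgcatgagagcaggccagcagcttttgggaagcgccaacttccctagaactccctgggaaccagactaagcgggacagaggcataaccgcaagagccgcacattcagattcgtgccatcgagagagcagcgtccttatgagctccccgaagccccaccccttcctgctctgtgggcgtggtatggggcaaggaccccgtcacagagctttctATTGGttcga
Efna1 upstream start, chr3:89280952-89281201, minus strand: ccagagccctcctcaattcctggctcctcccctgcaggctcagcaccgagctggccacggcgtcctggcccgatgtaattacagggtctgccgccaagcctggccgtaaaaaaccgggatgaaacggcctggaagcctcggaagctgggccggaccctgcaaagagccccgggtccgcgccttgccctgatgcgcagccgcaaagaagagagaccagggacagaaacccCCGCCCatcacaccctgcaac
Efna1 inner start, chr3:89279646-89279895, minus strand: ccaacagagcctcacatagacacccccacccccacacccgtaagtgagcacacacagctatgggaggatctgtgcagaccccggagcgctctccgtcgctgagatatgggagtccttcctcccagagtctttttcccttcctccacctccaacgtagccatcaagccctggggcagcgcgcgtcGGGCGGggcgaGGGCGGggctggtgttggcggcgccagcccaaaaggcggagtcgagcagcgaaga
The Efnb2 sequence held 27 CpG, 3 GC boxes and 2 CCAAT boxes, the Ephb4 sequence 12 CpG, 4 GC boxes and 1 CCAAT box. The Efnb1 sequence held 13 CpG and 1 CCAAT box. Those of Efna1 held 16 CpG and 1 GC box at the upstream start, and 18 CpG and 2 GC boxes at the inner start. Over 21255 such sequences of protein-coding genes, the median was 10 CpG, 42.6% held a GC box and 35.4% a CCAAT box. Efnb2 lay at the 89.0th percentile for CpG number and the others between the 55.1th and the 71.0th. The letters TATAAA were found in 1 of the 5 sequences, that of Efnb2, and in 11.6% of all. The Efnb2 match lay on the strand opposite to the gene, so the sequence as printed does not hold these letters. GTGGGAA, the letters bound by the Notch effector RBPJ, and CCGGAAG, an ETS core, were in 0 of the 5 and in 5.26% and 8.99% of all. None of the matches overlapped another. A match to letters is a description and does not show binding.

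All 5 start sequences carried a peak in all 4 libraries, where 57.2% and 58.9% of the 21255 sequences had one in KO, against 59.3% and 59.0% in WT. The peak covered all 250 bases in every library at Efnb2, Ephb4, Efnb1 and the inner start of Efna1. At the upstream start of Efna1 it covered 148 and 180 bases in KO and 238 and 229 bases in WT. That start was the exception, covered less in each KO library than in either WT library. The share of all start sequences with this order was not computed.

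The start region of Efnb2 (chromosome 8, 8660830 to 8662150), which was also the widest at that gene, was 1321 and 1282 bp wide in KO and 1267 and 1307 bp in WT. The KO and WT values overlapped. The start region of Ephb4 (chromosome 5, 137348555 to 137350372) was 1788 and 1508 bp wide in KO and 1523 and 1703 bp in WT. KO replicate 1 held 1 peak there where the other libraries held 2, and the groups overlapped. At Efnb1 (chromosome X, 99135654 to 99136400) the widths were 718 and 651 bp in KO and 653 and 718 bp in WT, again overlapping. The inner start of Efna1 (chromosome 3, 89279401 to 89280359) had 938 and 565 bp in KO and 749 and 768 bp in WT, so the KO libraries lay on both sides of the WT pair. Its upstream start (89280964 to 89281380) had 324 and 357 bp in KO and 417 and 398 bp in WT. Both KO widths lay below both WT widths, as they did in 27.1% of all regions called in all 4 lists.

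**Figure D1:**
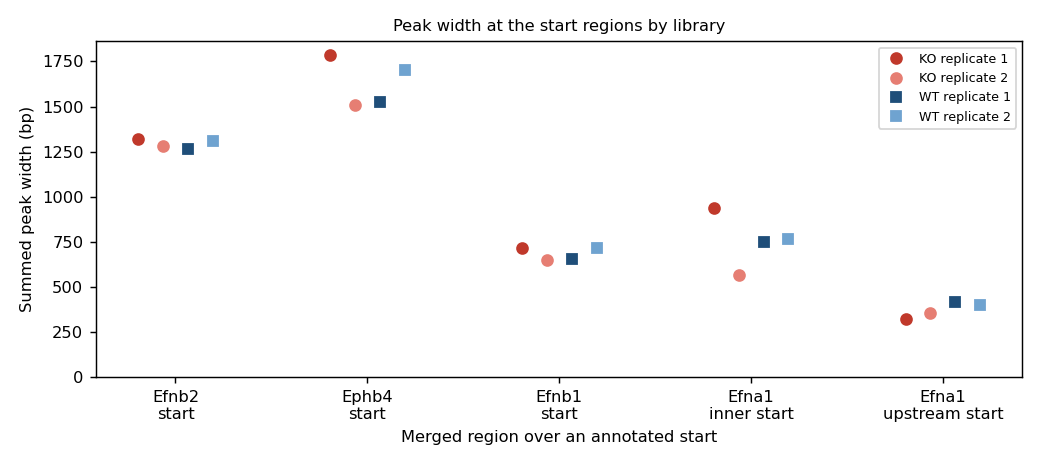
Summed peak width in bp (vertical axis, from 0) at the merged regions over the annotated starts of Efnb2, Ephb4, Efnb1 and Efna1, 1 point per library (circles KO, squares WT). The KO and WT points overlap at every start except the upstream start of Efna1. There the KO widths of 324 and 357 bp lie below the WT widths of 417 and 398 bp. This order was found in 27.1% of all regions called in all 4 lists.

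Widths were compared over the 75395 regions called in all 4 lists, 66.7% of all merged regions, with limma on quantile-normalised log2 width. The fit called 0 of them at an adjusted p under 0.05 (percentage called 0), with a smallest adjusted p of 0.537, and 4546 of them (6.03%) had an unadjusted p under 0.05. Of the 56 such regions at the 4 genes, 0 were called and 4 had an unadjusted p under 0.05, and their smallest adjusted p was 0.620 by limma with Benjamini-Hochberg adjustment. At the start regions the log2 difference of KO over WT was 0.04 ± 0.09 for Efnb2, 0.05 ± 0.11 for Ephb4, 0.03 ± 0.09 for Efnb1, -0.03 ± 0.22 for the inner start of Efna1 and -0.15 ± 0.09 for its upstream start (estimate ± SE, 2 libraries per genotype). None passed the threshold, with adjusted p from limma of 0.920 to 0.997. With the widest peak of each list in place of the sum, the Ephb4 start, where KO replicate 1 alone held an undivided peak, differed by 0.53. Without KO replicate 2 the inner start of Efna1 differed by 0.26 and without KO replicate 1 by -0.32 on the log2 scale. The median log2 difference was 0.01 over the 56 regions and 0.01 over all 75395. Quantile normalisation gives the lists the same distribution of widths. The median over all regions was thus held near 0 beforehand and cannot show a shift common to all regions. Leaving out 1 library moved the number under an unadjusted p of 0.05 from 4 to between 1 (without WT replicate 1) and 17 (without KO replicate 2), where 18.3% of all regions were under it without KO replicate 2, and the adjusted calls stayed at 0. Both KO widths, as deposited, lay below both WT widths at 16 of the 56 regions (28.6%), against 27.1% of all regions, and above them at 2, against 7.37%. The first share was near the background.

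The regions with the smallest p-values lay away from the starts. The region at chromosome 5, 137414265 to 137414635, 39.7 kb beyond the 3′ end of Ephb4 and inside Zan, the zonadhesin gene of sperm, was 201 and 205 bp wide in KO and 359 and 302 bp in WT. Its log2 difference was -0.57 ± 0.12 (SE; limma adjusted p = 0.620). Inside Efnb2, a region 2.2 kb from the start (chromosome 8, 8658853 to 8659227) was 363 and 334 bp wide in KO and 310 and 300 bp in WT, a log2 difference of 0.32 ± 0.10 (SE; limma adjusted p = 0.761). A further one, 16.5 kb from the start (8644502 to 8644934), was 227 and 255 bp wide in KO and 322 and 394 bp in WT, a log2 difference of -0.40 ± 0.14 (SE; limma adjusted p = 0.823). The KO and WT widths of these 3 regions did not overlap, and none passed the adjusted test. The remaining region under an unadjusted p of 0.05, named after its values were seen, lay inside Trim46 in the Efna1 window (89238609 to 89238954), with 277 and 332 bp in KO and 298 and 251 bp in WT.

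Efnb2 had 22 regions: 1 over the start, 11 inside the gene, 6 beyond its 3′ end and 4 upstream. Of the 22, 14 were called in all 4 lists, 3 had the WT pattern, a peak in each WT list with none in KO, and 0 the KO pattern, its reverse. The widest WT-pattern region (chromosome 8, 8613902 to 8614406) lay 2.83 kb beyond the 3′ end, with WT peaks of 495 and 456 bp, wider than 60.7% and 52.3% of the peaks of their lists. The nearest KO peaks lay 705 and 662 bp from it. Another (8649376 to 8649805) lay inside the gene, 11.7 kb from the start, with WT peaks of 420 and 266 bp and the nearest KO peaks 547 and 584 bp away. The last (8679287 to 8679555) lay 18.0 kb upstream, inside the neighbouring gene Arglu1, with narrow WT peaks of 209 and 225 bp. A peak of KO replicate 1, called in no other list, lay 365 bp from it.

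**Figure D2:**
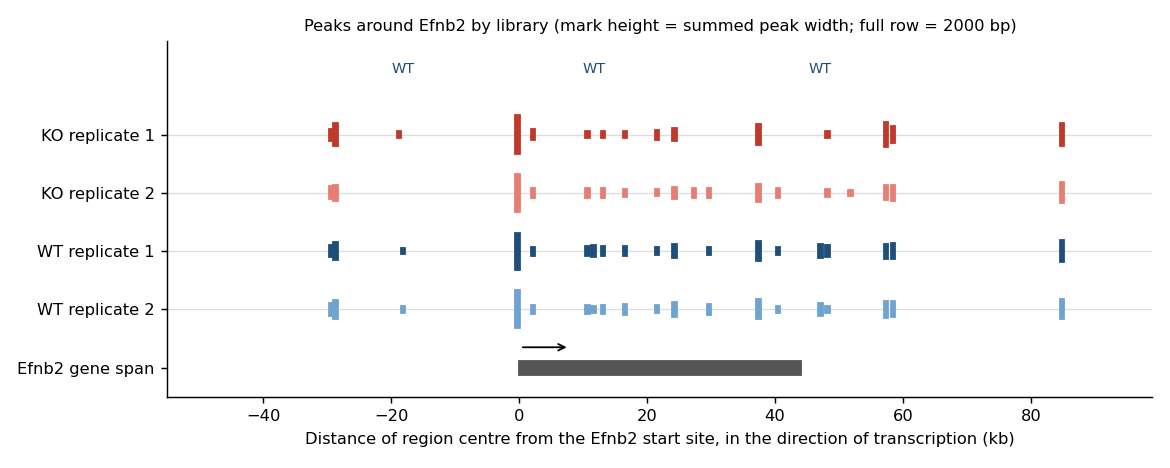
Peaks in the Efnb2 window by library, with KO replicates above WT replicates. The horizontal axis is the distance in kb from the start site in the direction of transcription, the height of a mark is the summed peak width in bp, the dark bar is the gene span, and "WT" above a position marks a WT-pattern region. The start region is the tallest mark in every library, at 1321 and 1282 bp in KO and 1267 and 1307 bp in WT, and the 3 WT-pattern regions lie upstream, inside and beyond the gene.

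Among the other 5 regions of Efnb2, 2 inside the gene (8620586 to 8620905 and 8631375 to 8631777) were absent from KO replicate 1 alone, 2 were called only in KO replicate 2 and 1 only in KO replicate 1. Of all 113056 merged regions, 8580 were absent from KO replicate 1 alone. The Efnb2 window held 15 and 18 peaks in KO and 19 and 19 peaks in WT. Both KO numbers lay below both WT numbers, as they did in 12.2% of the 18917 protein-coding gene windows with a peak. The mean was 16.5 ± 2.12 peaks in KO and 19 ± 0 in WT (SD, n = 2 each, two-sided exact permutation p = 0.3333, the smallest that 2 libraries against 2 allow). Peak bases summed to 7780 and 8016 bp in KO and 8894 and 8838 bp in WT, a difference of -968 bp (two-sided exact permutation p = 0.3333, n = 2 each). These did not overlap either, and the same order held in 42.6% of gene windows. The difference was negative under each alternative tried. Without scaling to list totals it ran from -1117.5 to -534.5 bp in peak bases and from -4 to -1 in number of peaks. The value of -1 was found without KO replicate 1 and with lists of equal length. Over the whole series both KO lists covered less than both WT lists, 46.6 and 47.8 Mb against 51.1 and 50.5 Mb. The unscaled values do not allow for these smaller KO totals. Per Mb of peak bases in the list the Efnb2 difference was -7.27 bp, and as a share of all peaks it was also negative. The peak numbers of KO and WT overlapped with a window of 10 kb (-2 peaks, two-sided exact permutation p = 1, n = 2 each) and of 100 kb (-2 peaks, exact p = 0.667).

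Ephb4 had 21 regions, of which 13 were called in all 4 lists, 1 had the WT pattern and 0 the KO pattern. The window crosses other genes: 9 of the 21 regions were nearest to Ephb4, while the rest were nearest to or inside Srrt, Trip6, Slc12a9 or Zan. Its widest region by the median over the lists, at chromosome 5, 137338246 to 137340050, lay inside Slc12a9, with 1762 and 1775 bp in KO and 1781 and 1778 bp in WT. The WT-pattern region (137378060 to 137378276) lay 3.54 kb beyond the 3′ end, with peaks of 208 and 209 bp. Such peaks were among the narrowest of their lists, at the 4.3th and 4.2th percentiles, and a KO replicate 2 peak lay 112 bp away, in a region called in all 4 lists. That neighbouring region (137376940 to 137377952) measured 476 and 732 bp in KO and 741 and 1009 bp in WT. Both KO widths were below both WT widths there, with a log2 difference of -0.50 ± 0.30 (SE; limma adjusted p = 0.922).

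The Ephb4 window held 14 and 19 peaks in KO and 19 and 16 peaks in WT. These numbers overlapped, and the difference of -1 became 1.5 without KO replicate 1 and 0.5 without WT replicate 1. Its peak bases summed to 9706 and 10304 bp in KO and 10489 and 10369 bp in WT, a difference of -424 bp (two-sided exact permutation p = 0.3333, n = 2 each). Both KO sums lay below both WT sums, an order found in 42.6% of gene windows. The difference ran from -723 bp without KO replicate 2 to -125 bp without KO replicate 1, and as a share of all bases in the list it turned to 6.55 bp more per 1000000 bp in KO. Peaks that touched the gene span, taken at full width, gave the other order. They summed to 110 and 95.8 bp per kb of gene in KO and 84.1 and 92.0 bp per kb in WT. These sums include start peaks in full, among them the undivided peak of 1788 bp in KO replicate 1. The start region ends at 137350372, shortly after the gene start at 137350109, so this order does not describe the span alone. Of the 5 regions inside the gene away from the start, 1 was absent from KO replicate 1 alone (137366632 to 137367037) and 1 was called only in KO replicate 2. Next to the region absent from KO replicate 1 lay one of all 4 lists (137367105 to 137367501) with 320 and 283 bp in KO and 235 and 279 bp in WT.

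Efnb1 had 11 regions, all nearest to it, since 0 other protein-coding genes overlapped its window. It was the member with 1 region of each pattern, and 8 regions were called in all 4 lists. The KO-pattern region (chromosome X, 99186856 to 99187324) lay 37.8 kb beyond the 3′ end, with KO peaks of 329 and 429 bp and the nearest WT peaks 11567 and 11641 bp away. The WT-pattern region (99130211 to 99130418) lay 5.64 kb upstream, with narrow WT peaks of 208 and 201 bp and the nearest KO peaks 4513 and 4490 bp away. The widest region (99198855 to 99200279), at the far edge of the window, had 1390 and 1218 bp in KO and 1388 and 1300 bp in WT. A region just beyond the 3′ end (99149104 to 99150400) had 1201 and 1282 bp in KO and 1288 and 1253 bp in WT. Both sets of widths overlapped between genotypes.

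The Efnb1 window held 10 and 9 peaks in KO and 9 and 9 peaks in WT, and its peak bases summed to 5924 and 5746 bp in KO and 5837 and 5713 bp in WT. Both measures overlapped, with two-sided exact permutation p of 1 and 0.667 (n = 2 each). KO replicate 2, the library with Xist peaks and without Y-gene peaks, had 2.13% of its peaks on chromosome X, against 2.14% in KO replicate 1 and 2.10% and 2.08% in WT. Without KO replicate 2 the start region differed by 0.03 on the log2 scale, KO over WT. Without that library the Efnb1 window differed by 1 peak and 149 bp, KO minus WT, against 0.5 peaks and 60 bp with it, and without KO replicate 1 by 0 peaks and -29 bp. The part of this difference between libraries in the Efnb1 values was not tested.

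Efna1 had 27 regions, the most of the members, with 21 shared by all the lists. None had the KO or the WT pattern. Its window is dense in genes, and 6 of the 27 regions were nearest to Efna1, the rest lying nearest to Thbs3, Muc1, Trim46, Krtcap2, Dpm3, Slc50a1, Efna3 or Efna4. The widest region, at chromosome 3, 89250484 to 89252229, lay near Krtcap2, with 1734 and 1243 bp in KO and 1253 and 1318 bp in WT. KO replicate 1 had 1 peak there and the other libraries 2. Inside Efna1, 2.6 kb from the upstream start, the region at 89277909 to 89278817 had 909 and 664 bp in KO and 704 and 705 bp in WT, and the KO libraries again lay on both sides. Upstream regions at 89281904 to 89282284, 89287084 to 89287888 and 89288402 to 89288898 were called in every library.

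The window of Efna1 held 23 and 28 peaks in KO and 27 and 24 peaks in WT, with means of 25.5 in each genotype (two-sided exact permutation p = 1, n = 2 each). The difference of 0 became 2.5 without KO replicate 1 and -2.5 without KO replicate 2. Peak bases summed to 13819 and 13482 bp in KO and 14023 and 12929 bp in WT, which also overlapped.

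**Figure D3:**
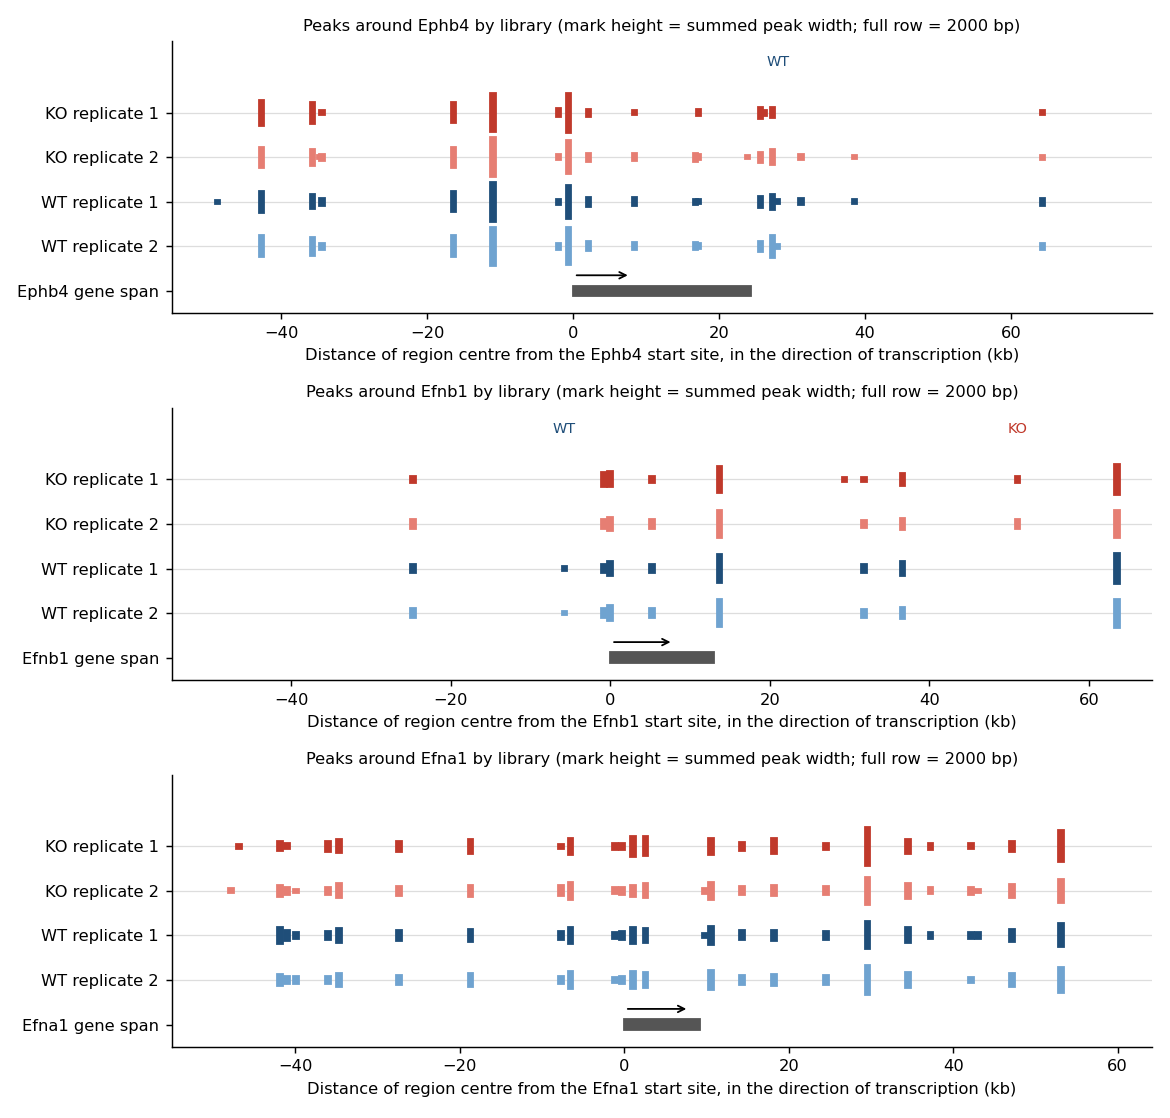
Peaks in the windows of Ephb4, Efnb1 and Efna1 by library, with KO replicates above WT replicates and the same axes and marks as in the Efnb2 map; "KO" marks a KO-pattern region. Ephb4 shows 1 WT-pattern region beyond its 3′ end, Efnb1 1 of each pattern, and Efna1 none.

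Per length of window, Efna1 had the most open chromatin and Efnb1 the least. Peak bases per kb of window averaged 125 ± 2.18 bp in KO and 123 ± 7.08 bp in WT for Efna1 (SD, n = 2 each here and below). Ephb4 had 80.4 ± 3.40 bp per kb in KO and 83.8 ± 0.682 in WT. Efnb2 had 54.8 ± 1.16 bp per kb in KO and 61.6 ± 0.275 in WT, and Efnb1 51.7 ± 1.11 in KO and 51.1 ± 0.776 in WT. The libraries of neighbouring genes in this order did not overlap in either genotype. In KO, Efnb2 (54.0 and 55.7 bp per kb) lay closest to Efnb1 (52.4 and 50.9 bp per kb). Over all 21887 protein-coding genes the median was 31.6 bp per kb, and Efna1, Ephb4, Efnb2 and Efnb1 lay at the 99.6th, 92.1th, 77.9th and 72.0th percentiles.

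**Figure D4:**
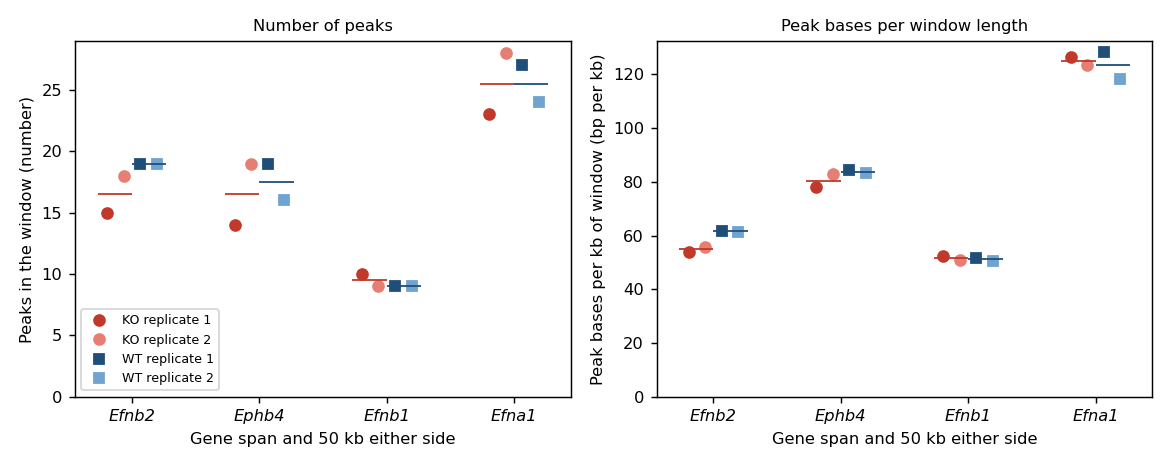
Number of peaks (left) and peak bases per kb of window (right, bp per kb) in the gene span and 50 kb either side of each gene, 1 point per library (circles KO, squares WT) with lines at the group means. KO points lie below WT points at Efnb2 in both panels, with 15 and 18 peaks in KO and 19 and 19 in WT, and at Ephb4 in the right panel, with 78.0 and 82.8 bp per kb in KO and 84.3 and 83.3 in WT; the remaining points overlap.

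Over the 4 genes together, 56 of 81 regions (69.1%) were called in all 4 lists, 1 (1.23%) had the KO pattern and 5 (6.17%) the WT pattern. Over all 113056 merged regions the KO pattern made up 1.12% and the WT pattern 3.04%. The KO share was near the background, and the 5 WT-pattern regions were spread over Efnb2 (3), Ephb4 (1) and Efnb1 (1). At least 3 WT-pattern regions in 1 window were found for 182 of 21887 protein-coding genes (0.832%), Efnb2 included. That share takes no account of how many regions a window holds, and Efnb2 with 22 stood at the 90.9th percentile of genes, whose median was 9. Regions called in 1 KO and 1 WT list numbered 4 (4.94%, against 4.72% of all regions), and regions called in a lone list numbered 10 (12.3%, against 13.4%), both near the background. Regions called in 3 lists numbered 5 (6.17%, against 11.1%). Absent from KO replicate 1 alone were 4 of the 81 regions, against 8580 of all 113056. With all lists cut down to equal length by dropping narrow peaks, 3 of 71 regions had the WT pattern, against 1.96% of all regions under that limit. Asking that no KO peak lie within 500 bp left 3 WT-pattern regions, those beyond the 3′ end of and inside Efnb2 and that of Efnb1. The share of all regions that pass this rule was not computed. Of the 6 patterned regions, the one beyond the 3′ end of Efnb2 was the 1 that kept its pattern when peaks under their list's median width were dropped. Under that setting, which forms the regions anew, 3 of 43 regions had the WT pattern, against 2.90% of all. Without KO replicate 2 there were 5 KO-pattern and 9 WT-pattern regions, and without KO replicate 1 there were 6 and 5, where each pattern asks for 1 list fewer. Over all regions those shares were 3.04% and 10.6% without KO replicate 2 and 5.68% and 4.86% without KO replicate 1. Without WT replicate 1 there were 2 and 5, against 2.05% and 5.59% of all regions. Without WT replicate 2 there were 1 and 6, against 1.84% and 7.38%.

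Peaks over the 4 windows numbered 68 ± 8.49 in KO and 71 ± 4.24 in WT (SD, n = 2 each, two-sided exact permutation p = 1). The libraries overlapped, and the difference of -3 became 3 without KO replicate 1 and 0 without WT replicate 1. Peak bases summed to 37229 and 37548 bp in KO and 39243 and 37849 bp in WT, a difference of -1157.5 bp (two-sided exact permutation p = 0.3333, n = 2 each). Both KO sums lay below both WT sums. As a share of all peak bases in the list the difference turned to 33.2 bp more per 1000000 bp in KO. Gene windows with both KO lists above both WT lists made up 2.93% by peak number and 4.36% by peak bases over the series, and 0 of the 4 genes did so.

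The other 18 genes of the family, 5 ephrins and 13 Eph receptors, had 226 regions, of which 159 (70.4%) were called in all 4 lists, 3 (1.33%) had the KO pattern and 6 (2.65%) the WT pattern. Both shares were near the background. Among the ligands, Efna5 held a WT-pattern region inside the gene (201 and 255 bp in WT), and a KO-pattern region lay 39.0 kb from Efnb3 (276 and 219 bp in KO). Of the receptors, Epha2, which binds ephrin A1, had 2 KO-pattern regions upstream, at 5.09 and 16.4 kb from the gene, and 1 WT-pattern region. Ephb2, a receptor of B-class ephrins, had 3 WT-pattern regions, as many as Efnb2, with 2 of them inside the gene, and Epha4 had 1. An annotated start sequence was found for 17 of the 18 genes, and 13 of these had a peak over it in all 4 libraries. Epha6, Epha8 and Epha10 had none in any library, and Efna5 lacked it in KO replicate 1 alone. The windows of Efna3 and Efna4 overlap that of Efna1, so 18 of the 226 regions are also among the 81, and each set counts a region once. Without those 18, 208 regions remained, 3 (1.44%) of the KO pattern and 6 (2.88%) of the WT pattern.

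**Figure D5:**
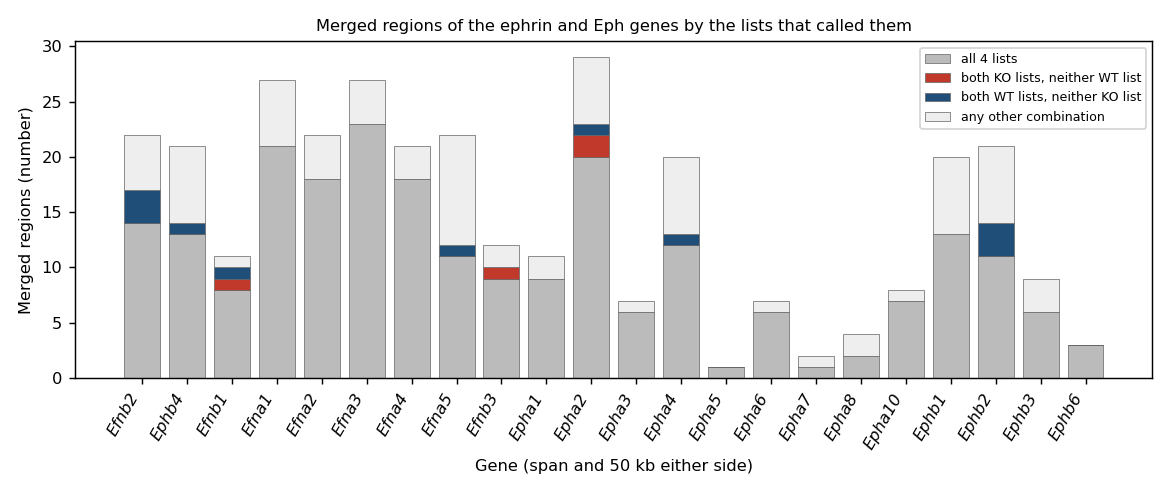
Number of merged regions (vertical axis) in the window of each ephrin and Eph gene, members first, split by the lists that called them (grey all 4, red KO pattern, blue WT pattern, light any other combination). Efnb2 and Ephb2 each have 3 regions of the WT pattern, and Epha2 has 2 of the KO pattern.

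Signalling partners and regulators of ephrins and Ephs, 13 genes, had 303 regions, 7 (2.31%) of the KO pattern and 6 (1.98%) of the WT pattern, against 1.12% and 3.04% of all regions. Tiam1, a Rac exchange factor, had 3 KO-pattern regions, all inside the gene, and Vav2, a guanine nucleotide exchange factor, had 2 with 1 of the WT pattern. Adam10, a protease that sheds ephrins, and Pard3, a polarity protein, had 1 KO-pattern region each, and Pard3 also 1 of the WT pattern. WT-pattern regions lay inside Nck1, an adaptor of activated Ephs, and inside Vav3, Sdcbp and Grip1, the last a scaffold that binds the tail of B-class ephrins, 1 each. Rasa1, Nck2, Arhgef15, Pick1 and Dab2 had 0 of either pattern. No region of these lists or of the other family genes was called for width by limma after adjustment, with 12 of 206 (5.83%) and 15 of 159 (9.43%) under an unadjusted p of 0.05, against 6.03% of all regions.

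The genes whose libraries were most alike to each member were taken by the distance between log2 peak bases, centred on each gene, over the 4 libraries. For Efnb2 they were Hps5, Hook2 and Fam171b, at distances of 0.0112 to 0.0114. Those of Ephb4 were Zcchc18, Prpf6 and Bbs2, those of Efnb1 Olfr66, Tmem120b and Nmb, and those of Efna1 Ampd1, Cnp and Ankrd45, at distances up to 0.0158. With 4 libraries and 18463 to 18480 genes compared, this likeness is a description of 4 values and carries no test.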

How the data were processed

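ATAC-seq was run on 4 libraries of sorted lung endothelial cells, 2 KO and 2 WT, grouped by genotype and numbered from the labels. Per the submitters' processing notes, cutadapt, Bowtie2, Picard and mm10 were used. The peak caller, its threshold, read filters, any transposase shift and read depth are not given in the sources used here, so no interval on a count could be given. The deposited lists give position and width in bp per peak, without scaling. A library read more deeply, or called more loosely, gains narrow peaks, so a missing peak need not mean closed DNA.

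Autosomal, X and Y peaks were joined where they shared at least 1 bp. The width of a region in a list was the sum of its peaks. Gene spans came from RefSeq (GRCm38.p6), without exons, so positions inside a gene were not divided into exon and intron. Widths were fitted with limma on quantile-normalised log2 width over all regions of 4 lists, with Benjamini-Hochberg adjustment and a threshold of 0.05, and library values with exact permutation tests. The procedures were tested on simulated data, where the planted shifts in width were larger than any fitted at the 4 genes. The simulation does not show what the width fit can detect at smaller differences. The members and gene lists were chosen with earlier results of these data known. Named were the 4 members, their patterned regions, start regions, widest regions and the 3 smallest p-values, patterned genes of the other lists, and the 3 genes most alike to each member. A leukocyte marker is not reported here. Sequences are RefSeq's. The fits ran in limma 3.58.1 under R 4.3.3. All else ran in Python 3.11.15 with scipy 1.17.1, pandas 2.3.3 and numpy 2.4.6, and plots in matplotlib 3.10.9.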

Additional observations from a re-analysis of the deposited data

How the results depend on the processing

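No region of the 4 genes passed the adjusted width test under any alternative fitted with limma, and the Efnb2 differences in peaks and peak bases were negative in all alternatives run for them. Other results moved, and the cause was not tested. KO-pattern regions numbered 0 with a 10 kb window and 1 to 6 when 1 library was left out. WT-pattern regions numbered 3 when peaks under the median width were dropped, 3 with lists of equal length and 3 with a 500 bp gap, and 5 to 9 when 1 library was left out. These counts are not of the same regions: of the 6 patterned regions, 1, 3 and 4 kept their pattern under those 3 settings. Over all regions the WT-pattern share was 2.90% with only wide peaks and 1.96% with lists of equal length. Leaving out 1 library, it was 4.86% to 10.6%, and the KO-pattern share was 1.84% to 5.68%. KO minus WT in peaks over the 4 windows became 18.087 per 1000000 peaks, and ran from -9 to 3 when 1 library was left out. In peak bases it became 519.5 bp with only wide peaks and 33.186 per 1000000 bases.

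Single genes turned as follows, KO minus WT. Ephb4 peaks became 0.843 per 1000000 and -3.5 to 1.5 leaving out 1 library, and Ephb4 bases 6.549 per 1000000. Efnb1 peaks became -1 with a 10 kb window, and Efnb1 bases -169.5 bp with 10 kb, -10.5 bp with 100 kb and -29 to 149 bp leaving out 1 library. Efna1 peaks (0) became -1 with lists of equal length or 100 kb, 17.932 per 1000000 and -2.5 to 2.5 leaving out 1 library. Efna1 bases became -52 bp with lists of equal length, -175 bp with 100 kb and -372.5 to 721.5 bp leaving out 1 library. Log2 width differences turned without quantile normalisation at the widest Ephb4 region (-0.009) and the Efnb1 start (-0.0022). With the widest peak in place of the sum, the difference was 0.5259 at the Ephb4 start, against 0.0536, and 0.4252 at the widest Efna1 region, against 0.2217. Leaving out 1 library they ran from -0.0432 to 0.0658 at that Ephb4 region, -0.0163 to 0.1249 at the Ephb4 start, -0.0331 to 0.0958 at the Efnb1 start, -0.077 to 0.0352 at the widest Efnb1 region and -0.3213 to 0.2633 at the inner Efna1 start.

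Libraries with the same replicate number were not treated as pairs. The correlation of same-numbered deviations was -0.0654 over 75395 regions and 2 pairs. With 2 libraries per genotype, this value cannot show whether the libraries were prepared in pairs. With the replicate block, limma gave 0 adjusted calls, and 2 regions of the 4 genes, against 4 without it, had an unadjusted p under 0.05. Differences in peaks (-3) and peak bases (-1157.5 bp) were the same by construction. The lists carry no read depth, which limits every statement on absence.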
